A study of Homo sapiens with 2 samples.

Results

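The regions described are 293 IRF1 binding summits that flank a transcription start site (TSS), out of 1986 summits (14.8%) in the deposited list. The DNA-binding protein IRF1, an activator of interferon-stimulated genes, was mapped by ChIP-seq in NB4, an established human line of acute promyelocytic leukemia that carries the PML-RARA fusion. The cells had been given all-trans retinoic acid (ATRA), the drug that makes this leukemia differentiate, for 4 hours. A second group received the solvent DMSO for 4 hours, and its values were not analysed here. Each group was 1 library from 1 cell line, so there is no replicate error. A summit belonged to the set when its signed distance to the nearest TSS, as the authors' table gives it, was more than 100 and at most 1000 bp in either direction. Rows on chromosome 21 that start below position 10000000 were left out, which removed 29 rows within this distance range. The distance rule itself used no measured signal. Every row is a summit above the peak caller's threshold, however, and earlier results of these data were known when the set was chosen. Peak scores are the authors' own values. The table does not name the unit of the score and gives no read depth for a summit. A summit list holds no RNA levels, so the labelled cell type could not be checked against marker genes.

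IRF proteins bind DNA through repeats of the letters GAAA, and a pair of them spaced by 2 bases forms the core of the interferon-stimulated response element (ISRE). Interferons and retinoic acid are both known to induce IRF1, which then activates antiviral, antigen presentation and cell death genes. Such elements often lie just upstream of the start site, where the factor can meet the transcription machinery, and also occur in first introns and farther away.

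The sequences under the summits were read where a RefSeq promoter window of GRCh38.p14 (250 bases before to 50 after a gene start, 300 in all) held the summit with 25 bases on each side. This was so for 67 of the 293 members, 34 upstream and 33 downstream by the authors' TSS. For 9 of the 67 the window belonged to another gene than the nearest one in the authors' table. Windows end 50 bases after a start, so summits farther downstream of all RefSeq starts were not read. The motif shares therefore do not describe the whole flanking set. The ISRE core GAAANNGAAA, searched on both strands, lay within those 51 bases in 16 of the 67 (23.9%, 95% Wilson interval 15.3 to 35.3). The same core was in 0.543% of all 51-base regions of the RefSeq windows. Its centre was 2.50 to 19.5 bp from the summit, with a median of 10.5 bp. By the start of the window, 15 of these 16 summits were upstream. A window holds 250 bases before its start and 50 after it, so this count was largely set by the search. The sequences below show this core at the 8 members with the highest scores that carry it, and at 4 weaker upstream members. The core is in capitals, with 10 bases on each side, on the strand where it reads GAAA.
SHFL (chr19:10086264-10086293, + strand): cccctgaatcGAAAGCGAAAcaggggccgg
ERAP1 (chr5:96807924-96807953, + strand): ccccaggaccGAAAGTGAAAgtggagcccg
PARP12 (chr7:140062942-140062971, + strand): ggcgggaaacGAAACCGAAAgcggccccgg
RBCK1 (chr20:408291-408320, - strand): cggcggaagaGAAAGTGAAAgtggcggccc
CARINH (chr5:132410880-132410909, - strand): gcaggaaagcGAAAGCGAAAccctccggga
TAP1 (chr6:32853819-32853848, + strand): aggggaaagcGAAATCGAAAgcggccgcct
TAPBP (chr6:33314073-33314102, - strand): ggaggaaagtGAAAGTGAAAggaggaagag
SOCS1 (chr16:11256298-11256327, - strand): cgccaccgcgGAAAGAGAAAccaaaagtgg
TBC1D32 (chr6:121334930-121334959, + strand): tagtaaaagtGAAACTGAAAgtagcctgac
PLXNC1 (chr12:94148574-94148603, + strand): ttcacaatggGAAAGTGAAAcgcacaagcg
HAX1 (chr1:154272441-154272470, + strand): gcggtcatagGAAACTGAAAgtgcgtcacg
TRIM26 (chr6:30213581-30213610, + strand): cagcgaaatgGAAACTGAAAtcaggcggga

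The lines of CARINH, TAP1, TAPBP and TRIM26 hold a further GAAA in front of the core at the same spacing, so that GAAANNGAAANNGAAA is present. This longer run, which contains the core, was found in these 4 of the 67 (5.97%, 2.35 to 14.4) and in 0.0206% of all regions of the same length. The core lay on the strand of the window's gene in 8 of the 16 and on the other strand in 8. Its frequency went with the score. All 16 members with a core scored above the median of the whole list, where they were 16 of 33 members inside windows (48.5%, 32.5 to 64.8). None of the 34 at or below that median had one, which by 3 counts allows up to 8.82%. The 16 with the core scored 29.5 to 320.5, of which 8 lay between 128 and 320.5 and the others between 29.5 and 74.0. The 51 without it scored 10.8 to 189, with a median of 20.7, so the ranges overlap. Above a score of 100, 8 of 9 members inside a window had the core. The exception was DRAM1, a p53-induced regulator of autophagy, with a score of 189.

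DRAM1 had the shorter match AANNGAAA, a single IRF repeat that is also part of every core, within 25 bases of its summit. This match was in 26 of the 67 (38.8%, 28.0 to 50.8), against 4.21% of all regions of the same length. PML, which encodes the scaffold of nuclear bodies and is one partner of the fusion in these cells, had a summit of 77.2 with the shorter match and no core. Its summit lies in the window of the neighbouring gene STOML1. The 30 bases at both summits are shown because they contrast with the set above, with the shorter match in capitals where it falls inside them.
DRAM1 (chr12:101877441-101877470, + strand): aaaggaacccgaccccgcgtcccctccggc
PML (chr15:73994783-73994812, - strand): ggaccccagcttagTTTCGATTctcggttt

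Other elements were near their background. CCAAT, the core bound by NFY, was at 5 of 67 summits (7.46%, 3.23 to 16.3), against 7.83% of all regions. The ETS core CCGGAAG was at 2 (2.99%, 0.822 to 10.2), against 1.85%, and the GC box GGGGCGGGG at 1 (1.49%, 0.264 to 7.98), against 3.18%. The STAT site TTCNNNGAA, the NRF1 site GCGCATGCGC and the retinoic acid response element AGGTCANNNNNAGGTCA were at none of the 67, which allows up to 4.48% each. Their shares of all regions were 1.20%, 0.186% and 0.000572%. Among the 207 summits within 100 bp of a TSS, 145 lay in a window and 40 of these had the core (27.6%, 21.0 to 35.4), with median scores of 92.3 with it and 20.2 without. The intervals for the core thus overlap between those flanking and nearer summits that could be read, all of which lie close to a RefSeq start. By gene, wherever the summit lay, they do not overlap. The core was in the windows of 22 of 203 member genes (10.8%, 7.27 to 15.9). For genes with a summit within 100 bp it was in 46 of 150 (30.7%, 23.8 to 38.5). All shares are descriptions of 1 library, and their intervals cover counting error only.

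**Figure D1:**
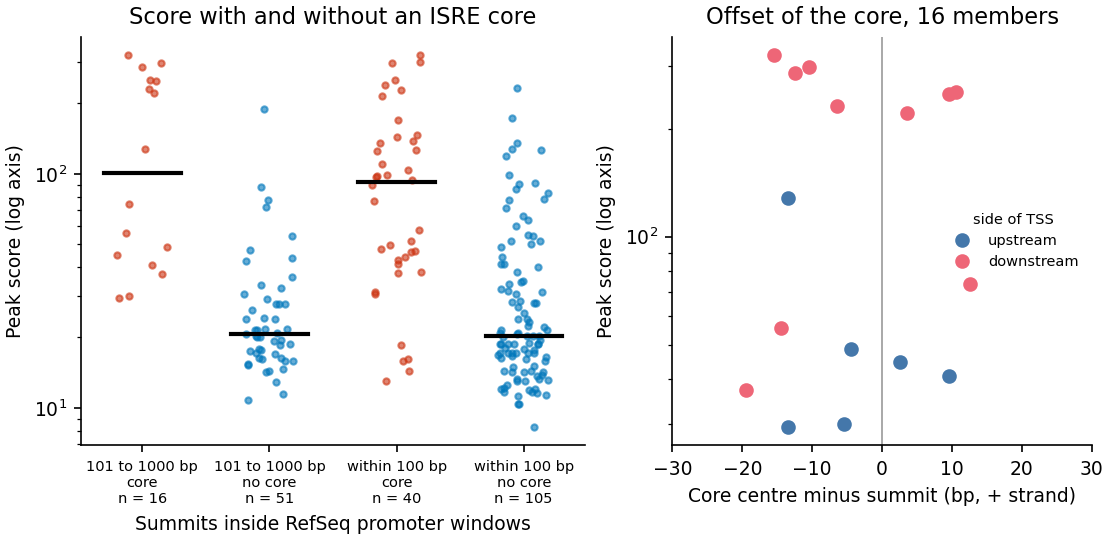
Left, peak score on a log axis of summits inside RefSeq promoter windows, for members and for summits within 100 bp, with and without an ISRE core; points are summits and bars are medians. Right, score of the 16 members with a core against the distance from summit to core centre. Members without the core had a median of 20.7, below all 16 with it (29.5 to 320.5), and every core centre lay within 19.5 bp of its summit.

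There were 171 downstream (58.4%, Wilson interval 52.6 to 63.9) and 122 upstream (41.6%, 36.1 to 47.4). The downstream share was near that of the whole list (56.0%) and of summits beyond 1000 bp (56.7%). Within 100 bp of a TSS the split was 94 downstream and 113 upstream (54.6%, 47.8 to 61.2). In steps of 100 bp away from the excluded zone, upstream counts were 43, 22, 14 and 9, and downstream counts were 32, 37, 33 and 17. The upstream summits were densest next to the TSS. The downstream count of 33, between 300 and 400 bp, includes 10 summits at copies of the small nuclear RNA gene RNU2-1 and is 23 without them. The median absolute distance was 280 bp upstream and 345 bp downstream.

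**Figure D2:**
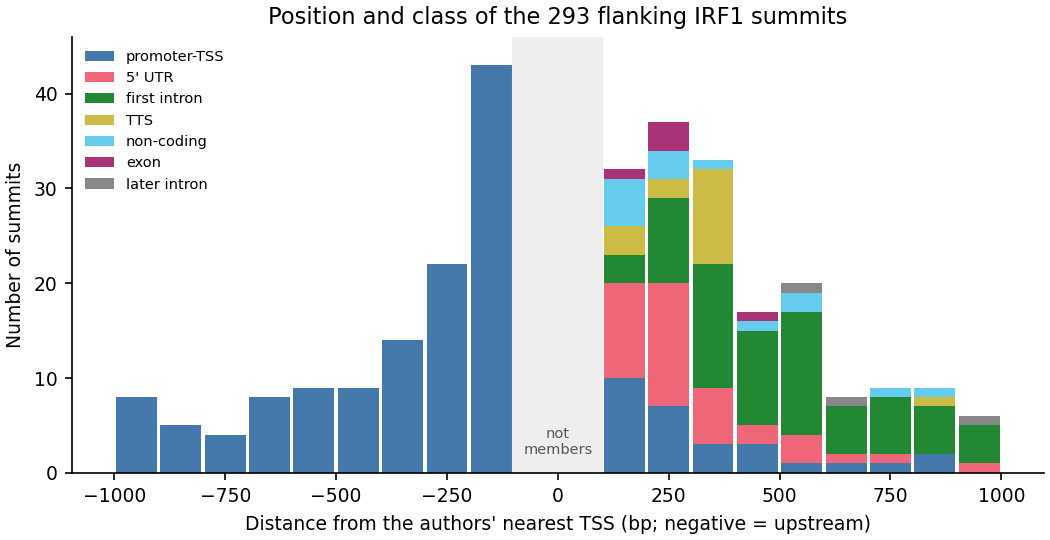
Number of member summits per 100 bp step of signed distance from the authors' nearest TSS, coloured by annotation class; the grey band holds no members. Upstream counts are highest next to the band (43), and all are promoter-TSS by the definition of that class. Downstream counts are 32, 37 and 33 in the first steps, the last of them 23 without 10 summits at RNU2-1 copies.

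The position depends on which start site is taken. For 224 members the nearest gene had a start in the RefSeq promoter table. Of the 123 downstream members among them, 32 lay within 100 bp of that gene's own RefSeq start (26.0%, 19.1 to 34.4), and 34 lay upstream of it. The counts by RefSeq start keep members far from it. Examples, with negative distances upstream, are AGPAT3 at -50910 bp, LINC02265 at -8623 bp and ATF3 at -5818 bp. Of the upstream members among them, 4 lay within 100 bp of it (3.96%, 1.55 to 9.74), and 3 lay downstream of it. By the nearest RefSeq start of any gene, 119 of the 224 were upstream (53.1%, 46.6 to 59.6), against 45.1% of the same 224 in the authors' table. The upstream side was thus the larger by this count and the smaller by the authors' TSS, though the interval includes equal shares.

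The strongest downstream summits were among those that moved. With negative distances upstream, SHFL was at 175 bp in the authors' table and at -23 bp from its RefSeq start. ERAP1 went from 240 to -4 bp, RBCK1 from 230 to -4 bp and TAPBP from 303 to -6 bp. PARP12 went from 752 to -18 bp and CARINH from 112 to -44 bp. All 6 carry a core shown above, and their closeness to a RefSeq start is also what brought them into the motif search, since only summits inside a RefSeq window could be read. Of the 23 downstream members with a score above 100, 20 had their own start in the table, and 8 of these were within 100 bp of it. Others, such as MOV10, HERC6, DNAJA1 and SH2B3, stayed downstream, at 120, 546, 513 and 737 bp.

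**Figure D3:**
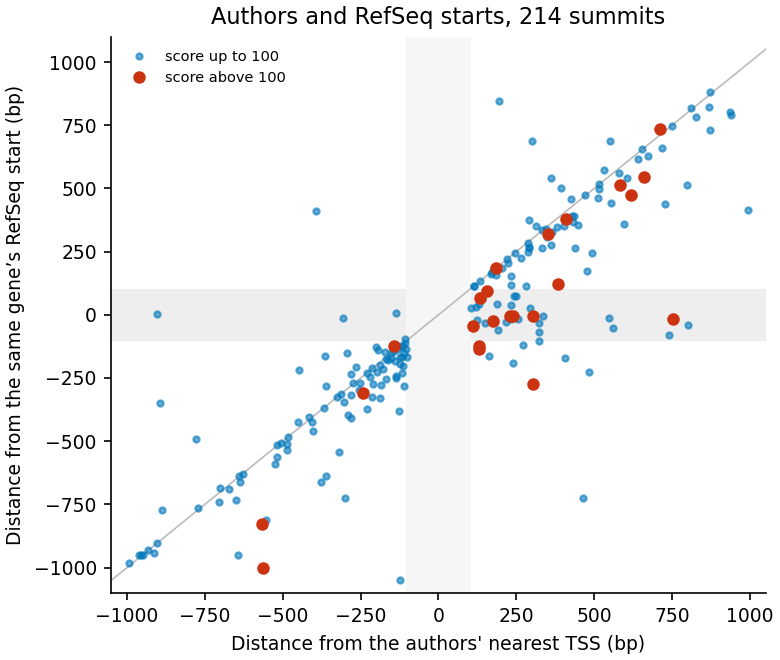
Distance of each member from the authors' nearest TSS (horizontal, bp) against its distance from the RefSeq start of the same gene (vertical, bp), for 214 members within 1100 bp of the latter; the line marks equal distances and red points score above 100. A group of red points with positive authors' distances lies in the horizontal grey band, within 100 bp of the RefSeq start.

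The annotation classes divided along the same line. All 122 upstream members were classed promoter-TSS. Of the 171 downstream ones, 68 were in a first intron (39.8%, 32.7 to 47.2), 37 in a 5′ UTR (21.6%, 16.1 to 28.4), 28 in the promoter-TSS class (16.4%, 11.6 to 22.6), 16 at a transcription termination site (TTS), 14 in a non-coding transcript, 5 in an exon and 3 in a later intron. The promoter class is itself set by distance and covers the 1000 bp before a TSS, so the upstream count was fixed by the rule. The downstream counts partly restate it too. Members in 5′ UTRs lay closer to the TSS (median 262 bp) than those in first introns (median 487.5 bp).

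The downstream promoter-TSS members often carried the promoter label of another gene, which the definitions largely set: HOMER's promoter class runs from 1000 bp before to 100 bp after a TSS, so a member cannot be in the class of a TSS that it lies downstream of. In 21 of these 28 the class named a transcript of a gene other than the nearest one. TAP1, which carries peptides into the endoplasmic reticulum for loading, and PSMB9, an immunoproteasome subunit, share such a promoter. The summit assigned to TAP1 (231, 131 bp downstream) was classed as the promoter of PSMB9, the one assigned to PSMB9 (115, 410 bp downstream) as the promoter of TAP1, and 731 bp lay between them. PML with STOML1, CHMP5 with BAG1, KLHDC3 with MEA1 and SKA2 with PRR11 were further pairs, named after their values were seen. At TAPBP, which encodes the chaperone that links TAP to class I molecules, the class was the TTS of the neighbour ZBTB22. At TMEM179B (141, 186 bp downstream) it was the TTS of TAF6L.

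Some upstream members had a divergent neighbour. Of those with their own start in the RefSeq table, 24 (23.8%) had a start on the opposite strand within 2000 bp, and in 7 the summit lay between the starts. For 2 of those 7, EIF5B with TXNDC9 and TOM1L2 with DRC3, the divergent gene was protein-coding. FOXP1, a forkhead transcription factor, had its summit between its own start and that of the divergent transcript FOXP1-DT, 389 bp from the latter.

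CpG islands were frequent at the intronic members. The authors' detailed column named a CpG island at 41 of 71 intronic members (57.7%, 46.2 to 68.5) and a repeat at 5. Among 578 intronic summits farther than 1000 bp from a TSS, 29 had a CpG island (5.02%, 3.52 to 7.11) and 168 a repeat (29.1%). The rule sets these groups apart by distance, so this contrast cannot be told apart from distance to the TSS. The CpG share was 65.7% with the limit at 500 bp and 40.7% with it at 2000 bp. No summit within 100 bp was classed as intronic, which follows from the promoter class running to 100 bp after a TSS. The median score of intronic members was 28.1 in CpG islands and 32.2 where neither was named. Of the protein-coding member genes, 203 of 235 had a RefSeq window. The median ratio of observed to expected CpG in it was 0.895 for genes with upstream members and 0.833 for those with downstream members. For genes with a summit within 100 bp it was 0.742. The same comparison with all protein-coding genes and with genes of farther summits is void, because only 78.4% and 79.3% of those had a window.

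The scores of flanking summits lay between 8.30 and 320.5, around a median of 26.9, and the middle 50% were at 17.9 to 46.7. The whole list had a median of 25.2, the summits within 100 bp 32.2, and those beyond 1000 bp 25.3. Among the 100 highest scores were 19 members (6.48%, 4.19 to 9.91), against 5.04% of all summits and 14.0% (9.93 to 19.4) of those within 100 bp. By side, the median was 22.7 upstream (95% order-statistic interval 21.0 to 27.9) and 27.9 downstream (26.2 to 32.2). These intervals overlap. By the authors' TSS, the sides differed more at the top of the range: 23 downstream members scored above 100 (13.5%, 9.13 to 19.4) and 4 upstream members did (3.28%, 1.28 to 8.13). This contrast depends on the start site taken. Of these 23, 20 had their own RefSeq start, and 10 of the 20 lay upstream of it. Among the 10 is AGPAT3, at -50910 bp, where the RefSeq start is a far one. None of the 4 upstream ones moved the other way. No test was made, since the summits come from 1 library. Within the set the score hardly moved with distance (Spearman's rho 0.0388 across 293 summits that share this library).

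**Figure D4:**
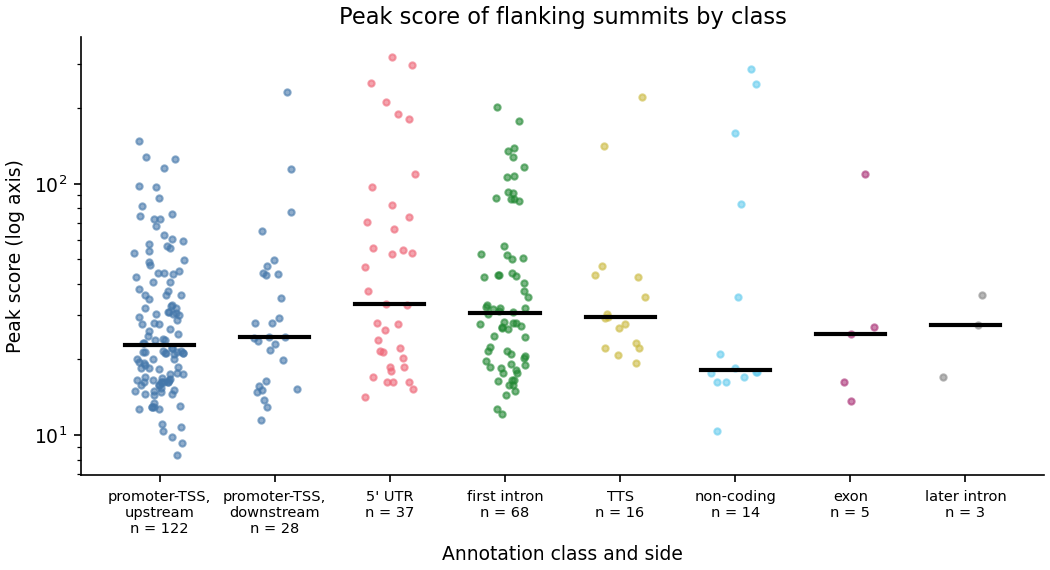
Peak score on a log axis of every member by annotation class, with promoter-TSS split by side; bars are medians. The 5′ UTR class has the highest median (33.4) and 7 members above 100, and the non-coding class has the lowest median (18.2) with 3 members above 100.

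By class, the median score was 33.4 in 5′ UTRs (22.3 to 55.7), 30.6 in first introns (26.4 to 37.4) and 24.6 for downstream promoter-TSS members (19.9 to 43.2). The top of the 5′ UTR class was SHFL, which blocks ribosomal frameshifting of viral messages (320.5). DNPEP, an aspartyl aminopeptidase, led the first introns with 203 at 304 bp. In later introns POLR3D, a subunit of RNA polymerase III, was highest with 36.2.

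The 10 highest downstream members scored 189 to 320.5. They were SHFL, the peptide-trimming aminopeptidase ERAP1 (297), the ADP-ribosyltransferase PARP12 (287), the linear ubiquitin ligase subunit RBCK1 (253), the non-coding RNA CARINH next to the IRF1 gene (250.0), TAP1 (231), TAPBP (221), the ISG15 protease USP18 (212, 107 bp), DNPEP (203) and DRAM1 (189). Of these, 7 belonged to 1 of the 13 gene lists used here, which were chosen with earlier results of these data known. The lists held 583 matched genes, against 19974 protein-coding genes in all. Of the protein-coding member genes, 50 of 235 (21.3%) were in a list.

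The 10 highest upstream members scored 74.8 to 148, and 3 were listed, a count to set beside the same 21.3%. CYTH1, an exchange factor for ARF GTPases, was highest with 148 at 242 bp upstream, and no promoter window held its summit. SOCS1, the feedback inhibitor of JAK-STAT signalling, had 128 at 144 bp, and its ISRE core is shown above. LNPEP, an aminopeptidase that trims peptides in endosomes, had 125 at 562 bp. FOXP1 had 116 at 565 bp, PRKD2, a protein kinase D, 98.2 at 312 bp, and the G protein subunit GNA13 97.4 at 211 bp. The non-coding RNA LINC01358 had 88.0, the cytidine deaminase gene APOBEC3D 81.5 at 217 bp, LOC285628 75.6 and the interferon signal transducer STAT2 74.8 at 228 bp.

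Next, the members' genes were set against the lists. Of 19974 protein-coding genes, 235 were the nearest gene of a member (1.18%), and 186 had one of the summits within 100 bp (0.931%). Interferon-induced antiviral genes had a member at 20 of 87 (23.0%, 15.4 to 32.9) and a summit within 100 bp at 42 (48.3%, 38.1 to 58.6), with 5 genes in both. Their median score was 28.1 over 22 member summits. Of the 20 genes, 16 had a downstream member and 4 an upstream one. SHFL, PARP12, USP18 and HERC6, an interferon-induced HECT-domain protein (117, 659 bp into its first intron), were highest. The middle of the list held TDRD7 (82.1, 140 bp downstream), PML (77.2), the zinc finger antiviral protein ZC3HAV1 (52.5, 333 bp), SAMD9L (43.4) and SAMHD1, which depletes nucleotides that viruses need (30.3, 936 bp). At the low end were APOBEC3C (15.8) and the RNA sensor RIGI (12.7).

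Antigen presentation genes had a member at 8 of 39 (20.5%, 10.8 to 35.5) and a summit within 100 bp at 7 (17.9%, 8.98 to 32.7). Their 9 member summits had a median score of 55.7. ERAP1, TAP1, TAPBP and PSMB9 scored above 100. ERAP2, HLA-C, MICA and PSMB10 had 55.7, 27.4, 21.7 and 16.4. ERAP1, ERAP2 and LNPEP are neighbouring, related aminopeptidase genes on chromosome 5, and each had a flanking summit within 127 kb (297, 55.7 and 125). ERAP2 was named after its value was seen. HLA genes resemble each other in sequence, and how reads matching several genes were placed is not given in the sources used here.

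Interferon signalling and IRF/STAT genes had a member at 3 of 34 (8.82%, 3.05 to 23.0). These were SOCS1, STAT2 and IRF2, a family member that can oppose IRF1 (62.3, 230 bp upstream), and each had its highest member upstream. STAT2 and IRF2 also had a weaker downstream member, with 20.8 at 124 bp and 21.7 at 472 bp. No member had IRF1 as its nearest gene. Innate sensing and NF-kB genes had 5 of 45 (11.1%, 4.84 to 23.5), namely RBCK1 (253), the peptidoglycan sensor NOD1 (44.0), TRAF5 (33.0), the adaptor MYD88 (26.2) and IKBKG (12.1). Cell death genes had 3 of 37 (8.11%, 2.80 to 21.3), among them the death receptor inhibitor CFLAR (18.0) and the necroptosis effector MLKL (12.7).

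**Figure D5:**
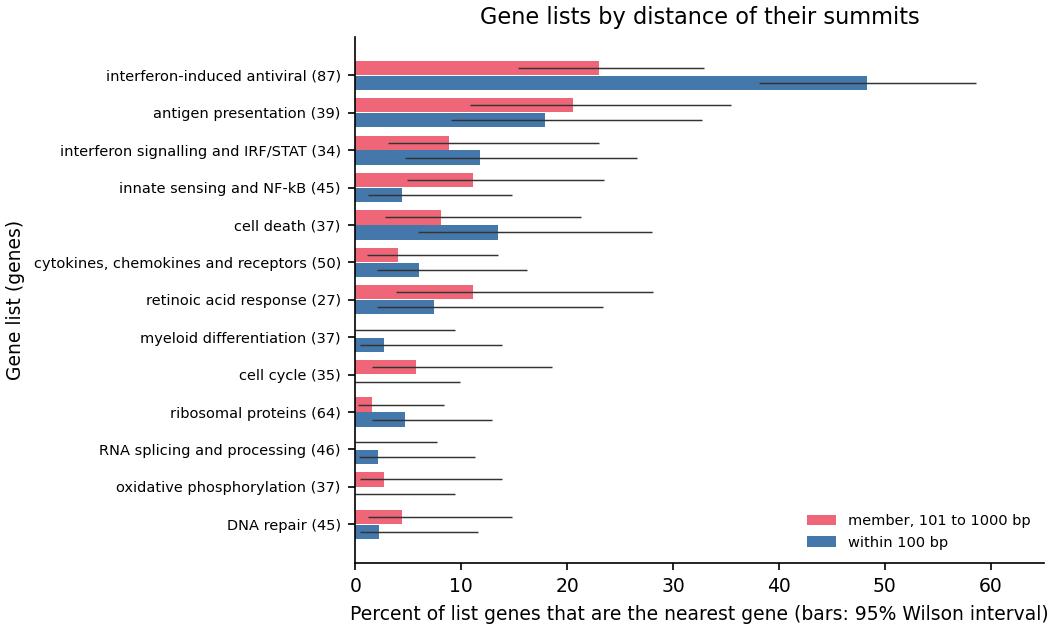
Percent of the genes of each list that were the nearest gene of a member or of a summit within 100 bp, with 95% Wilson intervals; list sizes in brackets. The antiviral list reaches 23.0% among members and 48.3% within 100 bp, and most other lists have overlapping intervals.

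The other lists held few members. Cytokines and receptors had 2 of 50, the macrophage growth factor CSF1 (109.6) and IL15RA (17.7). The retinoic acid list had 3 of 27 (11.1%, 3.85 to 28.1), the ubiquitin-conjugating enzyme UBE2D3 (74.0, with an ISRE core at its summit), the adhesion molecule ICAM1 (27.6) and the receptor RXRA (16.8). Myeloid differentiation and RNA splicing genes had 0 of 37 and 0 of 46. Cell cycle genes had 2 of 35, PCNA (60.3) and BUB1 (14.4), DNA repair genes 2 of 45, NBN (50.2) and ATR (21.3), ribosomal protein genes 1 of 64, RPS12 (52.9), and oxidative phosphorylation genes 1 of 37, NDUFA9 (15.3). A summit list holds only sites above the caller's threshold, so a gene without a member may still be bound.

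Most member genes belonged to no list, 185 of 235 protein-coding genes (78.7%). The 5 antiviral, presentation, signalling, sensing and death lists together held 39 (16.6%), against 60 of 186 (32.3%) within 100 bp and 1.21% of all protein-coding genes. Inside RefSeq windows, 9 of 16 member summits of these lists had an ISRE core (56.2%, 33.2 to 76.9) and 7 of 51 other summits did (13.7%, 6.81 to 25.7). Those 7 included HAX1, an inhibitor of apoptosis, PLXNC1, a semaphorin receptor, and TBC1D32, a ciliary protein.

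Strong members outside the lists or the 10 highest had varied functions, and those given here were picked after their scores were seen. Downstream, MOV10, an RNA helicase that restricts retroelements, had 181 at 385 bp. DNAJA1, a co-chaperone of heat shock protein 70, had 177 at 583 bp, the transcription factor NFIC 135 at 132 bp, and AGPAT3, an acyltransferase of phospholipids, 128 at 643 bp. SH2B3, an adaptor that dampens cytokine receptor signalling, had 106 at 712 bp, and the membrane channel gene PANX1 96.9 at 289 bp. Several of these lay in first introns, and none but NFIC was within 200 bp of the authors' TSS. That reflects the picking, since PCGF5 (159 at 156 bp) and TMEM179B (141 at 186 bp) are also strong, unlisted and downstream.

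Few genes had several flanking summits. The 293 members had 272 nearest genes, of which 13 had more than 1 member. The small nuclear RNA RNU2-1 had 10, between positions 43233583 and 43299889 of chromosome 17, all 314 to 394 bp downstream, with scores of 22.3 to 46.9. RNU2-1 stands in the genome as an array of near-identical copies, so these are not independent sites, and the handling of multiply mapped reads is not given in the sources used here. With 3 other members, small nuclear RNA genes made up 12 of the 16 TTS members. AMER1, DDX60L, DRAM1, HERC6 and 8 other genes had 2 members each. At DRAM1 they lay 127 bp upstream (22.3) and 129 bp downstream (189).

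Of the 272 genes, 17 (6.25%) also had a summit within 100 bp, and the flanking one was higher in 5. At WSB2, a WD repeat and SOCS box protein, the member scored 139 at 353 bp against 11.7 at 16 bp, and at UBE2D3 it was 74.0 against 13.0. At RIGI and IL15RA the member was lower, 12.7 against 173 and 17.7 against 232. These genes were named after their values were seen.

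At the limits of the rule, HAX1 (-102 bp, score 30.0) and PDXK (-104 bp, 19.6) were just inside the lower limit, and SMARCA5 (100 bp, 37.6) and ANXA2R-AS1 (-99 bp, 71.4) just outside. KCNH8 (-995 bp, 16.6) and CYB561 (994 bp, 52.0) were just inside the upper limit, and OSM (-1003 bp, 82.1) and NOD2 (1012 bp, 43.0) just outside.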

How the data were processed

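Per the submitters' processing notes, the tools were Bowtie2 2.2.9 and MACS 1.4.2, and the genome was hg38. Summits carry gene annotation that the authors added by running HOMER's annotatePeaks.pl, per the file headers. The deposited peak score is the authors' value per summit, with no stated scale. For the calling background, threshold and duplicates, nothing is given in the sources used here. Positions are 1-based.

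The members and gene lists were chosen with earlier results of these data known. Nearest genes were matched by Entrez identifier to RefSeq (GRCh38.p14), which held 292 of 293, and current symbols are used. Sequences and strands come from RefSeq promoter windows, which were not used for 5 members whose chromosomes they do not cover. Named genes are the 10 highest members per side, the highest per class, up to 4 per list, those at the rule's limits, those with most members, and PML; members shown with sequences were chosen by their motif after values were seen. Shares have 95% Wilson intervals. Some members that the rule would name are not reported here. No test across summits was made. The motif search was tested on simulated data. Python 3.11.15, pandas 2.3.3 and scipy 1.17.1 were used.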

Additional observations from a re-analysis of the deposited data

How the results depend on the processing

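No paired analysis was possible because there was 1 library for each condition, which also leaves no replicate to omit. Of 66 alternative values, 55 stayed within the 95% interval of the reported value. Some alternatives hardly changed the set, such as merging close summits, which left 292 of 293. Keeping summits at or above the list median moved the upstream share to 35.5%. By construction it also raised the top 100 share, to 12.3%, and the median scores, to 44.0 in all, 43.8 upstream and 45.5 downstream. The antiviral list, which could only lose genes, moved to 13.8%. With the limit at 500 bp first introns held 29.4% of downstream members, and with it at 2000 bp CpG islands held 40.7% of intronic ones. By the nearest RefSeq start 53.1% were upstream. A run of 3 GAAA repeats was at 5.97% of summits in windows. The core was in 10.8% of member genes' windows, and in 30.0% for genes whose summit lay in a window. Over all RefSeq windows, counted by window and not by gene, it was in 3.57%. Leaving out small nuclear RNA genes, an alternative chosen after seeing the data, moved no value outside its interval. The causes were not tested.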

Other observations

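Gene names gave further groups, which share genes with the lists and with each other. ERAP1, ERAP2, PSMB9, PSMB10 and USP18, for example, are also listed, and USP18 and USP33 count in both the peptidase and the ubiquitin group. Proteins of the proteasome or with peptidase in their name were 12 of 272 member genes (4.41%), against 3.41% of genes with a summit within 100 bp and 0.983% of genes with a farther one. Besides ERAP1, ERAP2, LNPEP, DNPEP and PSMB9, they included the constitutive proteasome subunits PSMA3 (93.1, 429 bp downstream) and PSMB1 (26.9, 169 bp downstream). Names with ubiquitin, tripartite motif or ring finger terms, which take in ligases, conjugating enzymes and deubiquitinases, were 14 of 272 (5.15%), against 6.34% within 100 bp and 1.88% farther away. Among them PCGF5, a Polycomb RING finger protein, had 159, the deubiquitinases USP33 and OTUD4 had 91.7 and 72.4, and RNF213, a large ubiquitin ligase with antimicrobial roles, had 56.6.

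Kinase and phosphatase names were 17 of 272 (6.25%), against 5.98% of genes with a farther summit, with 10 of 120 genes upstream (8.33%) and 7 of 158 downstream (4.43%). PRKD2 was the only one of the 17 that scored above 50, at 98.2, and the others lay between 8.30 and 43.3. Non-coding RNA names were 23 of 272 (8.46%), against 21.0% of genes with a farther summit. The same counts within 100 bp were 3.90% for kinases and 7.32% for non-coding RNAs. These word classes were not tested.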
